A study of Monascus purpureus with 6 samples.

Results

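The 90 genes described here are those with the most reads in mycelium of the Monascus purpureus YY-1 strain. They were chosen by their level in YY-1. Each count was scaled to a library total of 1000000 (CPM), the 7491 genes were ranked by their mean CPM over the 3 YY-1 libraries, and the top 100 were taken. Of these, 10 were then left out, namely 7 genes in the range of the pigment cluster on scaffold C5, 1 gene in the range of the citrinin cluster on scaffold C6, and C5.251 and C3.618. The rule also leaves out the 15 outermost genes at each end of the large scaffolds C1 to C8 and all genes on other scaffolds, but none of the top 100 lay there. Because YY-1 levels chose the members, their high level in YY-1 is not a result, and a comparison of the strains that uses the same YY-1 libraries is given as a description only.

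Monascus purpureus is a filamentous ascomycete used to make red yeast rice, and it forms polyketide pigments as well as the mycotoxin citrinin. The winter strain is a single hygromycin-resistant transformant of YY-1, obtained by random insertion of a hygromycin resistance gene from the plasmid pHPH into protoplasts, and it was picked for its low citrinin output. It also forms more pigment than YY-1, its untransformed parent. Mycelium of both strains was collected on the eighth day of culture, and RNA of 3 cultures of each strain, named a, b and c, was sequenced. With 1 transformant, effects of the insertion, of the resistance gene and of the transformation itself cannot be told apart.

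In a fungal mycelium a small number of genes gives a large part of the messenger RNA. In filamentous fungi these genes commonly encode ribosomal proteins, translation elongation factors, enzymes of glycolysis, histones, chaperones, and proteins of the cell wall or the secreted fraction. Secondary metabolism competes with these functions for precursors such as acetyl-CoA and for reducing power. None of these roles is assigned to a member here, because for 81 of the 90 members only a scaffold and a gene number were at hand. The other 9 members carry Gene Ontology terms. The terms were copied from a supplementary list of genes selected as higher in winter on these same libraries. A term therefore tells what such a gene may do and is not evidence of its direction. The paper also reports terms for genes lower in winter, which were not used here. A member without a term is thus not shown to lack an annotation.

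The totals were 15194009 to 16004947 counts per library in winter and 9661178 to 10595943 in YY-1. The lowest count of any member in any library was 809 (C2.21, winter culture b), and in YY-1 it was 9168 (C6.170, YY-1 culture c), so that counting error was small beside the spread between cultures. CPM is not divided by transcript length, so ranks are ranks of reads, and a long transcript can outrank a short one that has more molecules. In a comparison of counts over all genes, culture b stood farthest from the others in winter, and in YY-1 cultures b and c were the farthest apart. The label mycelium was not checked against marker genes.

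The members took a smaller share of all reads in winter. They held 27.0% of the counts in winter a, 22.1% in winter b and 25.6% in winter c, against 32.1% in YY-1 a, 29.7% in YY-1 b and 35.2% in YY-1 c. Every winter value was below every YY-1 value. The mean share was 24.9 ± 2.52% in winter and 32.3 ± 2.73% in YY-1 (SD, n = 3 each). In all, 72 members had a smaller mean share in winter and 18 had a larger one, and these changes came to -10.7 and 3.29 percentage points. The rule favours a large YY-1 share, so no test is given for this difference.

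**Figure D1:**
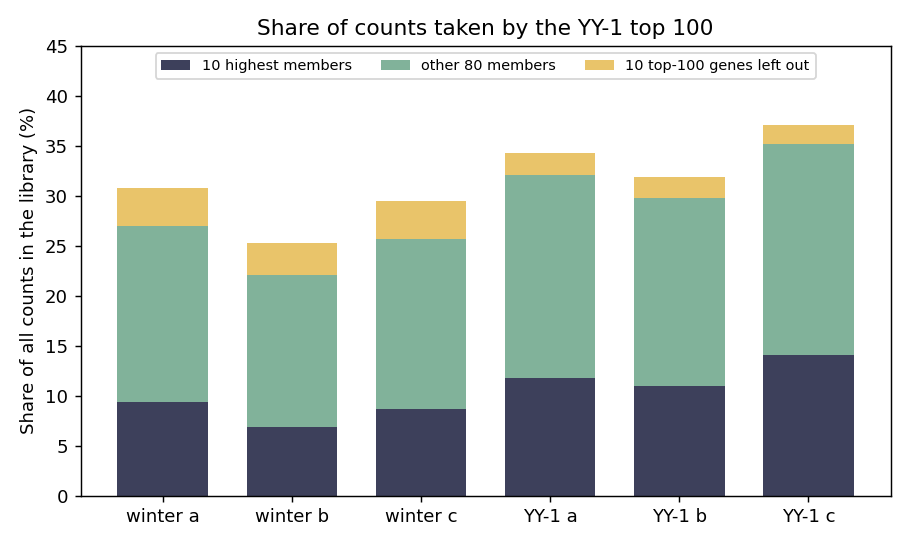
Share of all counts in each library (y axis, %) for the 10 highest members, the other 80 members and the 10 genes of the YY-1 top 100 that were left out, stacked per library, with the 3 winter libraries on the left and the 3 YY-1 libraries on the right. The members' part reaches 22.1 to 27.0% in winter and 29.7 to 35.2% in YY-1, while the part of the genes left out is taller in winter.

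The 10 highest members alone accounted for much of the share. They took 9.32, 6.91 and 8.66% of the counts in winter a, b and c, against 11.8, 10.9 and 14.1% in YY-1 a, b and c. The other 80 members took 16.6 ± 1.28% in winter and 20.1 ± 1.17% in YY-1 (SD, n = 3 each). The 10 genes left out of the top 100, most of them in the pigment cluster range, ran the other way, with 3.63 ± 0.360% in winter and 2.06 ± 0.164% in YY-1 (SD, n = 3 each).

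Reads were about as concentrated in winter as in YY-1 when each library was given its own top 100. That top 100, with no gene left out, held 34.8 ± 3.22% of the counts in winter and 34.6 ± 2.68% in YY-1 (SD, n = 3 each). The difference is smaller than the spread between cultures of either strain. What differed was which genes stood in the top 100. When the rule was applied to the winter libraries instead, 83 genes remained after the same omissions. Of these, 49 were also members, which is 54.4% of the YY-1 members and 59.0% of the winter list. These 49 genes held 21.4 ± 2.33% of the counts in winter and 24.0 ± 2.45% in YY-1 (SD, n = 3 each). The 41 members absent from the winter list held 3.45 ± 0.193% in winter and 8.37 ± 0.525% in YY-1. The 34 genes found only in the winter list held 7.46 ± 0.481% in winter and 2.57 ± 0.0973% in YY-1.

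The highest transcript was the same in both strains. C6.597, which has no term, had 19996, 14131 and 18766 CPM in winter a, b and c, against 17521, 17796 and 28481 CPM in YY-1 a, b and c. It took 1.76 ± 0.309% of all counts in winter and 2.13 ± 0.625% in YY-1 (SD, n = 3 each). The groups overlapped, and the high YY-1 mean rested on culture c. The log2 fold change (winter over YY-1, from edgeR with TMM scaling of the library sizes) was -0.19 with a standard error of 0.33, and without YY-1 c it was 0.16.

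**Figure D2:**
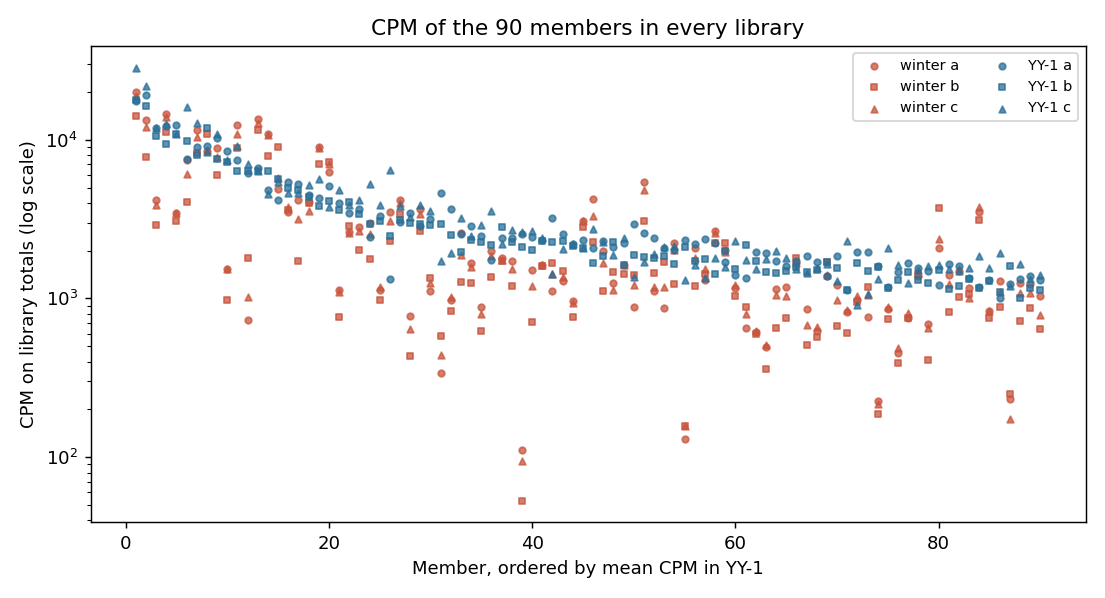
CPM of each of the 90 members on a log scale (y axis), in order of their mean CPM in YY-1 (x axis), with winter libraries in red and YY-1 libraries in blue and the cultures a, b and c as circles, squares and triangles. The YY-1 means run from 21266 to 1285 CPM by construction, whereas the winter values scatter widely around that line, and a few members lie far below it, down to a winter mean of 85.9 CPM.

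Of the 12 highest members, 4 were well below their YY-1 level in winter, and the values of the other 8 lay closer together. All 3 YY-1 libraries placed these 12 genes in the list, so their fold changes are a description and no p is given.

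C7.128 had 4147, 2898 and 3854 CPM in winter a, b and c, against 11819, 10609 and 11843 CPM in YY-1 a, b and c. All winter values lay far below all YY-1 values. Its log2 fold change was -1.55 with a standard error of 0.26, and -1.65 to -1.46 with 1 YY-1 library left out. Its rank was 28 in winter and 3 in YY-1.

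C6.748 had 3461, 3077 and 3471 CPM in winter a, b and c, against 12361, 10839 and 10804 CPM in YY-1 a, b and c. The strains did not overlap, and the winter cultures were close to each other. The log2 fold change was -1.67 with a standard error of 0.24, and -1.74 to -1.58 with 1 YY-1 library left out. The rank was 32 in winter and 5 in YY-1.

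C1.730 showed a deeper drop. It had 1529, 977 and 1530 CPM in winter a, b and c, against 8519, 7268 and 7493 CPM in YY-1 a, b and c. The strains did not overlap. Its log2 fold change was -2.42 with a standard error of 0.28, and -2.51 to -2.33 with 1 YY-1 library left out. It stood at rank 97 in winter and at rank 10 in YY-1, so that it was still within the winter top 100, at its lower end.

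C5.329 was the highest member that left the winter top 100. It had 736, 1786 and 1025 CPM in winter a, b and c, against 6149, 6324 and 7010 CPM in YY-1 a, b and c. The YY-1 cultures were within a narrow range, and winter b was the highest winter culture. Its log2 fold change was -2.40 with a standard error of 0.31, and -2.46 to -2.27 with 1 YY-1 library left out. Its rank was 119 in winter and 12 in YY-1. C7.128, C6.748, C1.730 and C5.329 carry no term.

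The other 8 of the 12 highest members, C6.597 among them, had smaller fold changes. C4.339 had 14510, 11115 and 13874 CPM in winter a, b and c, against 12243, 9388 and 12496 CPM in YY-1 a, b and c, and the groups overlapped. C2.513 had 11510, 8255 and 10451 CPM in winter, against 9030, 8024 and 12690 CPM in YY-1, again with overlap. C1.320 had 8468, 10898 and 8658 CPM in winter, against 9168, 11798 and 8310 CPM in YY-1. In both strains C1.320 was highest in culture b, and it held rank 8 in both. The log2 fold changes over the 6 libraries were 0.30 (standard error 0.28) for C4.339, 0.11 (standard error 0.30) for C2.513 and 0.03 (standard error 0.23) for C1.320. The sign of the last 2 changed with the library left out, and that of C1.320 also when library totals replaced TMM.

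C8.514 had 8816, 5956 and 7820 CPM in winter a, b and c, against 10206, 7573 and 10850 CPM in YY-1 a, b and c, and its log2 fold change was -0.25 with a standard error of 0.29. It was lowest in culture b of both strains, and the strains overlapped. C2.592, the second highest member, had 13403, 7778 and 12029 CPM in winter, against 19260, 16213 and 21870 CPM in YY-1. C3.743 had 7406, 4030 and 6120 CPM in winter, against 7531, 9825 and 16074 CPM in YY-1. For both genes every winter value was below every YY-1 value. The log2 fold change was -0.69 (standard error 0.32) for C2.592 and -0.84 (standard error 0.38) for C3.743, and with 1 YY-1 library left out that of C3.743 ran from -1.05 to -0.39. C7.576 had 12472, 8842 and 10868 CPM in winter, against 7436, 6314 and 9147 CPM in YY-1, with an overlap of winter b and YY-1 c. Its log2 fold change was 0.58 (standard error 0.29), and 0.42 to 0.80 with 1 YY-1 library left out.

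A place in the winter top 100 was common for members at the top of the list and rarer toward its end. Of the 90 members, 49 stood within the top 100 of all genes by mean CPM in winter, 24 stood past rank 100 but within rank 200, and 17 stood beyond rank 200. All 10 of the members of YY-1 rank 1 to 10 were within the winter top 100, and 6 of them were within the winter top 10. The same held for 9 of the 10 members of rank 11 to 20, 15 of the 25 of rank 21 to 50 and 15 of the 45 of rank 51 to 100. Members near the lower end have less room before they leave the list, so these shares follow partly from the rule. The winter top 10 consisted entirely of members, with C7.576, C4.791, C8.536 and C2.58 in place of C7.128, C6.748, C3.743 and C1.730.

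**Figure D3:**
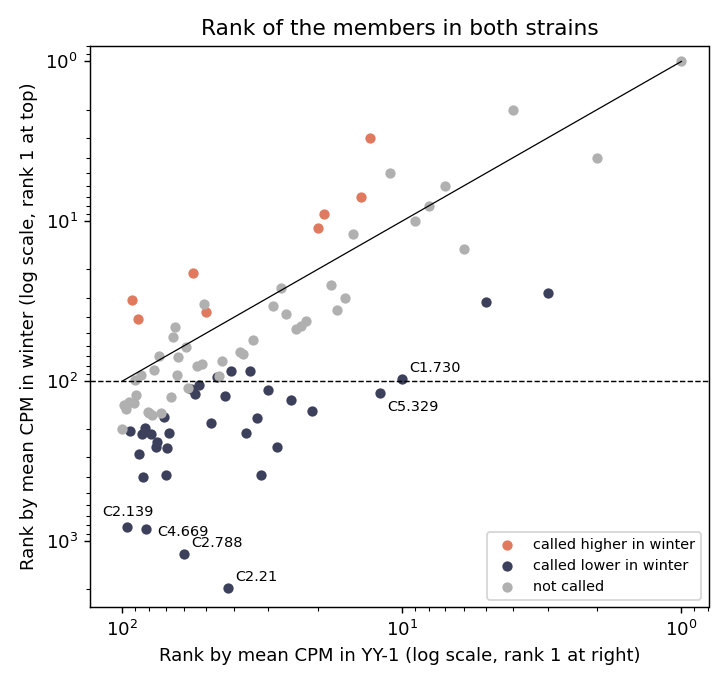
Rank of each member by mean CPM in winter (y axis) and in YY-1 (x axis), both on log scales with rank 1 at the top and at the right, coloured by the edgeR call over the 6 libraries. The solid line marks equal ranks and the dashed line the edge of the winter top 100, and 41 members lie below the dashed line, with C2.21 lowest at rank 1977.

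In total 17 members had a better rank in winter, 2 (C6.597 and C1.320) had the same rank and 71 had a worse one. The median rank was 92.5 in winter and 50.5 in YY-1. Single cultures gave a like picture, since 48, 47 and 48 members were within the top 100 of winter a, b and c, against 79, 81 and 85 in YY-1 a, b and c. Membership in every culture was less common, with 38 members in the top 100 of all 3 winter libraries and 72 in that of all 3 YY-1 libraries. Another 33 members were in the top 100 of no winter library. The YY-1 ranks and counts are largely set by the rule, so their contrast with winter is a description and not a result.

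The largest loss was that of C2.21. It had 110, 53.2 and 94.1 CPM in winter a, b and c, against 2529, 2122 and 2607 CPM in YY-1 a, b and c, and its log2 fold change was -4.71 with a standard error of 0.34. Its rank was 1977 in winter and 42 in YY-1, and it alone of the members fell below 100 CPM in the winter mean. C2.788 had 130, 157 and 158 CPM in winter, against 2335, 2109 and 1300 CPM in YY-1, a log2 fold change of -3.59 (standard error 0.23), with rank 1210 in winter and 60 in YY-1. In YY-1 the value of culture c was the lowest, and it was still far above every winter value. These genes, like all others named by their fold change, are described without a p because they were picked for the size of the difference.

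C4.669 had 226, 188 and 215 CPM in winter a, b and c, against 1592, 1589 and 1330 CPM in YY-1 a, b and c, a log2 fold change of -2.74 (standard error 0.19). C7.372 had 340, 582 and 442 CPM in winter, against 4611, 2928 and 1724 CPM in YY-1, a log2 fold change of -2.67 (standard error 0.33). Its YY-1 cultures were far apart, with culture a highest. C2.139 had 233, 249 and 175 CPM in winter, against 1240, 1594 and 1195 CPM in YY-1, a log2 fold change of -2.52 (standard error 0.20). With C1.730, described above, these were the 6 members with the lowest log2 fold change, and 3 of the 6 (C2.21, C2.788 and C2.139) lie on scaffold C2. None of them carries a term.

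The 17 members beyond winter rank 200 had all winter values below all YY-1 values, as did 32.6% of all tested genes, and their median log2 fold change was -1.64. They were taken for a high YY-1 rank and a low winter rank, so this separation follows from the choice. Together they took 0.900 ± 0.0765% of the counts in winter and 3.17 ± 0.204% in YY-1 (SD, n = 3 each). The 24 members between rank 100 and rank 200 took 2.55 ± 0.117% in winter and 5.20 ± 0.380% in YY-1, with a median log2 fold change of -0.62. The total change in the members' share was -7.46 percentage points. The 49 in the winter top 100 made up -2.53 points, the 24 made up -2.65 points and the 17 made up -2.27 points. The 5 genes with the largest decreases in share were C2.592, C6.748, C7.128, C1.730 and C5.329, all among the 12 highest, and they made up -3.56 points.

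The members that were higher in winter were fewer, and they carry most of the terms. C1.925, with the terms NAD binding and nucleotide binding, had 3481, 3103 and 3788 CPM in winter a, b and c, against 1180, 1172 and 1862 CPM in YY-1 a, b and c. Its log2 fold change of 1.38 (standard error 0.27) was the highest of the members, and its rank was 31 in winter and 92 in YY-1. C1.596, listed under carotenoid and isoprenoid biosynthesis and FAD binding, had 5396, 3094 and 4809 CPM in winter, against 2567, 1832 and 1705 CPM in YY-1, a log2 fold change of 1.24 (standard error 0.29). Isoprenoids are built from acetyl-CoA, as are polyketides. The lowest winter value of each gene was above its highest YY-1 value.

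C4.791, listed under serine-type peptidase activity and fatty acid metabolism, had 13590, 11552 and 12833 CPM in winter a, b and c, against 6600, 6312 and 6338 CPM in YY-1 a, b and c. Serine peptidases cleave peptide bonds by an active-site serine. The log2 fold change was 1.08 (standard error 0.24), and the rank was 3 in winter and 13 in YY-1. C8.536 carries the terms of ketol-acid reductoisomerase, an enzyme of the synthesis of branched-chain amino acids, and of phosphogluconate dehydrogenase (decarboxylating), an enzyme of the pentose phosphate pathway. A further term, cellular amino acid biosynthetic process, goes with the former enzyme, but which one applies was not checked by sequence. C8.536 had 10868, 7884 and 10677 CPM in winter, against 4804, 6343 and 4558 CPM in YY-1, a log2 fold change of 1.02 (standard error 0.26).

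C3.160, with the term purine ribonucleotide binding, had 2082, 3687 and 2356 CPM in winter a, b and c, against 1212, 1520 and 1619 CPM in YY-1 a, b and c, a log2 fold change of 0.97 (standard error 0.24). Winter b was its highest culture, unlike most members. C2.58, with a term for lysine biosynthesis by the diaminopimelate route and one for an oxidoreductase acting on an aldehyde or oxo group, had 9051, 7038 and 8883 CPM in winter, against 4321, 3844 and 5644 CPM in YY-1, a log2 fold change of 0.94 (standard error 0.28). Fungi generally make lysine by another route, through alpha-aminoadipate, so this term is given as listed. The 9 members with a term took 5.37 ± 0.434% of the counts in winter and 2.95 ± 0.0886% in YY-1 (SD, n = 3 each), against 19.5 ± 2.10% in winter and 29.4 ± 2.70% in YY-1 for the 81 without one. As the terms come from a list of genes found higher in winter, this contrast follows from the list.

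Over all 6 libraries, edgeR's quasi-likelihood test (Benjamini-Hochberg adjusted p below 0.05) called 8 of the 90 members higher in winter, which is 8.89%, where 22.5% of the 7355 tested genes were called higher. It called 35 members lower, which is 38.9%, where 25.5% of all tested genes were called lower. The other 47 members were not called. YY-1 levels chose the members, and a gene that was high by chance in YY-1 enters such a list more readily, so nothing is read from these shares. The median log2 fold change was -0.50 over the members and -0.03 over all tested genes. Scaling by library totals alone gave -0.61 over the members and -0.13 over all genes. All 8 members called higher carry a term, and C8.24 is the only member with a term that was not called (log2 fold change 0.55, standard error 0.24).

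By CPM on library totals, 49 members (54.4%) had all winter values below all YY-1 values, where 32.6% of all tested genes did. Another 9 of the 90 members had all winter values above all YY-1 values, where 21.6% of all tested genes did. The 8 members called higher were among these 9, with C8.24 as the other, and 34 of the 35 members called lower were among the 49. The exception was C1.495, with 883, 1400 and 1212 CPM in winter a, b and c, against 2962, 1889 and 1366 CPM in YY-1 a, b and c, where winter b lay just above YY-1 c. It was named after its values were seen.

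The call followed the rank in winter, as both use the same counts. All 17 members beyond winter rank 200 were called lower, as were 12 of the 24 between rank 100 and rank 200. Of the 49 members in the winter top 100, 6 were called lower, namely C7.128, C6.748, C1.730, C7.435, C3.484 and C1.385. The 8 called higher were all among the 49. In the list chosen by winter levels the picture was the mirror image, with 38 of 83 genes called higher and 6 called lower at a median log2 fold change of 0.50. For the 49 genes in both lists the median was -0.14, with 8 called higher and 6 called lower.

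To test the strains without the library that made the choice, the rule was applied to 1 YY-1 library alone, and the genes it chose were tested between the 3 winter libraries and the other 2 YY-1 libraries with edgeR over all genes. With the choice and the test on separate YY-1 libraries, fewer of the chosen genes than of all genes were higher in winter, and more were lower. The rule on YY-1 a alone chose 89 genes, of which 5 (5.62%) passed as higher, where 18.8% of all tested genes did, and 26 (29.2%) passed as lower, where 20.1% did. The rule on YY-1 b alone chose 89 genes, of which 6 (6.74%) passed as higher, where 20.6% of all tested genes did, and 36 (40.4%) passed as lower, where 22.3% did. The rule on YY-1 c alone chose 92 genes, of which 13 (14.1%) passed as higher, where 21.8% of all tested genes did, and 29 (31.5%) passed as lower, where 25.6% did. In each of the 3 choices the share of higher calls was below, and the share of lower calls above, that of all genes. The median log2 fold changes of the chosen genes were -0.43, -0.63 and -0.34 for the choice on a, b and c, against -0.00, 0.00 and -0.04 over all tested genes. The 3 fits share the winter libraries and most of the genes and are not 3 independent results. Leaving out the choosing library removes the noise of that culture, but the genes were still chosen by a high level in YY-1. In the fit over 6 libraries the list chosen by winter levels was the mirror image. Whether a choice by the level in 1 strain sets the direction was not tested. The same fit was not run for genes chosen on 1 winter library, so the direction is not read as a property of these genes.

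**Figure D4:**
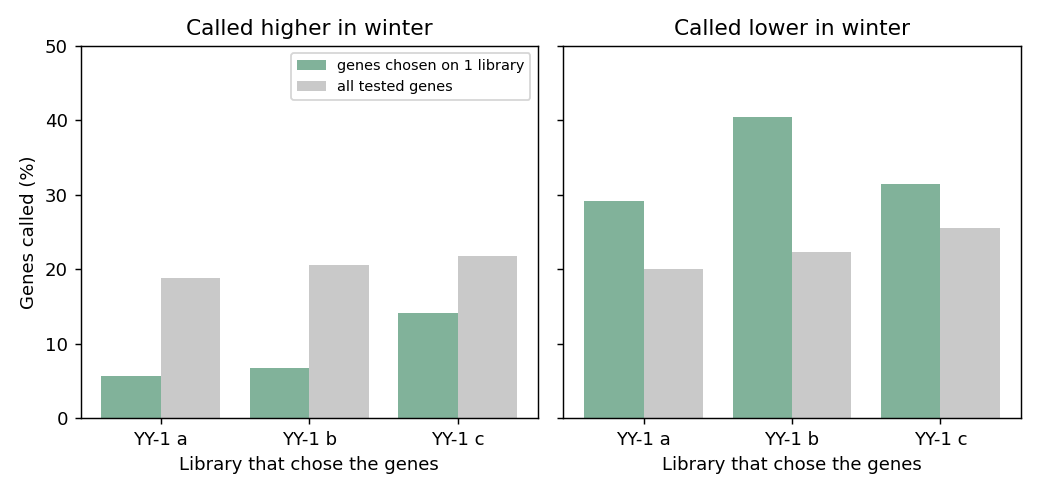
Percentage of genes called higher (left panel) and lower (right panel) in winter by edgeR without the library that chose them, for genes chosen on 1 YY-1 library (green) and for all tested genes (grey), with the choosing library on the x axis. The green bars are below the grey ones on the left, 5.62 to 14.1% against 18.8 to 21.8%, and above them on the right, 29.2 to 40.4% against 20.1 to 25.6%.

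The 3 choices gave 114 different genes, and 72 members were chosen by each of the 3 libraries alone. For these 72 every tested YY-1 library also took part in the choice, so the calls that recur over the 3 fits are a description and not an independent test. Of the 72, 4 were called higher in all 3 fits, namely C4.791, C8.536, C1.260 and C1.596. Another 21 were called lower in all 3 fits. They were C7.128, C6.748, C1.730, C5.329, C2.463, C1.343, C7.241, C2.60, C7.372, C4.759, C5.452, C2.21, C4.391, C2.788, C2.901, C3.813, C6.370, C2.1021, C4.669, C2.1113 and C5.765. All 4 called higher carry a term and none of the 21 does, which follows in part from the source of the terms. The share of all tested genes called in all 3 fits is not given here. These counts are therefore not read as a trait of the members.

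At the edge of the top 100 the YY-1 levels inside and outside differed little, as the ranking fixes, whereas the winter levels ranged more widely outside than inside. C1.308, C5.793 and C7.474 were the last 3 members, with means of 1019, 1060 and 826 CPM in winter and 1330, 1288 and 1285 CPM in YY-1. The next 3 genes were C8.338, C7.123 and C5.766, with means of 274, 1467 and 2243 CPM in winter and 1268, 1261 and 1245 CPM in YY-1. In YY-1 the step across the edge was thus smaller than the spread between cultures of any of these genes.

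The members were spread over all 8 large scaffolds. C1 held 15 of its 1285 genes as members, C2 17 of 1177, C3 9 of 1037, C4 12 of 913, C5 6 of 834, C6 12 of 866, C7 11 of 702 and C8 8 of 578. The share of genes that were members was lowest on C5 (0.719%), where the rule removed the pigment range, and highest on C7 (1.57%). Scaffolds differed in how many members stood in the winter top 100, with 7 of 8 on C8 but 5 of 17 on C2 and 1 of 6 on C5. These counts are small and were not tested.

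Members did not stand next to each other. No pair had consecutive gene numbers, and the median distance between neighbouring members on a scaffold was 57.5 gene numbers, with 324 as the largest. Only 8 pairs were at most 10 gene numbers apart. The closest were 3 pairs with 1 gene between them. C1.925 and C1.927 had log2 fold changes of 1.38 and -0.60, C2.58 and C2.60 of 0.94 and -1.29, and C8.203 and C8.205 of -0.58 and -0.18, so that in the first and the second of these pairs the signs differed.

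The 177 genes directly beside the members were mostly ordinary in level. Their median mean CPM in YY-1 was 50.1, against 38.2 over all genes. None was in the YY-1 top 100, which largely restates that no members had consecutive numbers. Among them 28 were called higher and 55 lower in winter, where 22.5% and 25.5% of all tested genes were. C8.204, between C8.203 and C8.205, was named after its values were seen. It had 6186, 4750 and 5395 CPM in winter a, b and c, against 914, 775 and 1432 CPM in YY-1 a, b and c, a log2 fold change of 2.46 (standard error 0.32), and its rank was 17 in winter and 133 in YY-1. The members on both sides of it held ranks 36 and 25 in winter and 17 and 18 in YY-1. C8.203 had 4174, 1714 and 3180 CPM in winter, against 5291, 4808 and 4622 CPM in YY-1. C8.205 had 4054, 3994 and 3575 CPM in winter, against 4499, 4340 and 5161 CPM in YY-1. All winter values of both genes were below all YY-1 values, but neither gene was called. Winter b of C8.203 lay far below its YY-1 values, and its SD of log2 CPM in winter, 0.658, was the highest of the members.

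The spread of the members between cultures was above that of all genes in winter and below it in YY-1. The median SD of log2 CPM over the members was 0.253 in winter and 0.211 in YY-1. Over all tested genes above 0 in every library it was 0.191 in winter and 0.245 in YY-1, and over the 399 genes that follow the top 100 in YY-1 rank it was 0.172 in winter and 0.226 in YY-1. The widest spread was that of C8.539 in YY-1, which had 3526, 2290 and 3092 CPM in winter a, b and c, against 1328, 2456 and 6407 CPM in YY-1 a, b and c. The YY-1 mean that placed C8.539 among the members rests mostly on culture c, whereas the winter cultures lay within the YY-1 range. The YY-1 spread is touched by the choice, since genes with 1 high culture enter a list ranked by the mean.

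Much of the spread was shared by the members within a culture. Winter b was the lowest winter culture for 63 of the 90 members (70.0%), while it was the lowest for 30.1% of all tested genes above 0 in every library. YY-1 b was the lowest YY-1 culture for 47 members (52.2%), against 17.2% of all those genes, and YY-1 c was the highest for 44 members (48.9%), against 18.9%. As log2 CPM against the mean of the other cultures of the strain, the median of the members was -0.27 in winter b and -0.16 in YY-1 b, where all genes had medians of 0.14 and 0.16. Culture b of each strain thus gave fewer of its reads to the members. Over the members the deviations in winter b and YY-1 b were correlated across genes, with r = 0.56 and rho = 0.60 (n = 90 genes). Over all genes they had r = 0.27 and rho = 0.31 (n = 7348). For winter b and YY-1 c the members had r = -0.40 and rho = -0.43, and all genes had r = -0.080 and rho = -0.079. Each deviation is taken against the other cultures of its strain, so those of YY-1 b and YY-1 c are linked. Other pairings are not given here for the members. Genes are not independent replicates, the points share the same 6 libraries and their totals, and the sources used here do not say whether cultures with the same letter were grown together.

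**Figure D5:**
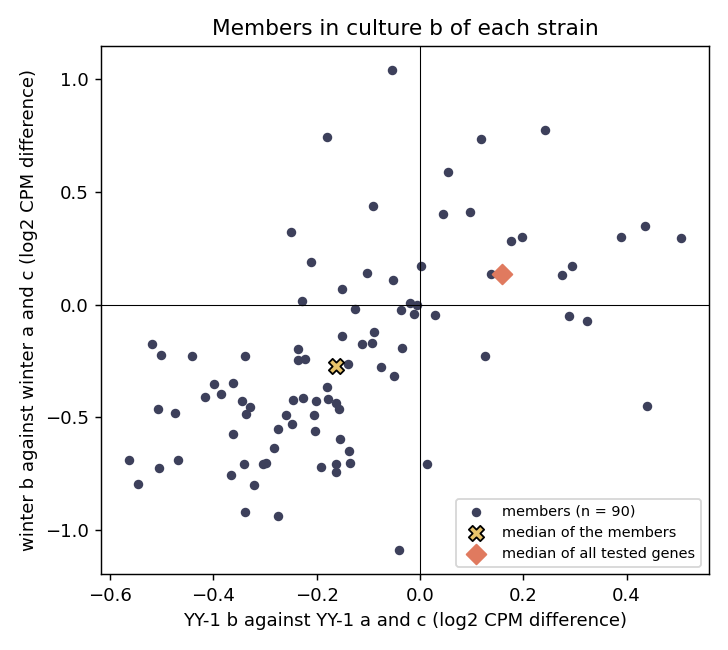
For each of the 90 members, log2 CPM in winter culture b against winter a and c (y axis) and in YY-1 culture b against YY-1 a and c (x axis), with the median of the members as a cross and the median of all tested genes as a diamond. Most members (60 of 90) lie in the lower left part, below 0 in both cultures b, whereas the median of all genes lies above 0 on both axes.

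Below 0 in both cultures b were 60 members (66.7%), against 17.2% of all tested genes above 0 in every library. Another 14 members lay above 0 in both, among them C1.320, C4.166, C7.372, C2.788, C3.160 and C2.139. Of the 60, 34 stood in the winter top 100, 5 were called higher and 23 lower, with a median log2 fold change of -0.48. Of the 14, 8 stood in the winter top 100, 1 was called higher and 6 lower, with a median of -0.56. Both sets thus had a median near that of all 90 members, and the difference between the sets was not tested. Over all tested genes 22.5% were called higher and 25.5% lower. The sets were formed with YY-1 b, which also took part in the choice of the members, so their calls are a description. C4.166 had 4891, 9056 and 5720 CPM in winter a, b and c, against 4169, 5629 and 5434 CPM in YY-1 a, b and c, and was named after its values were seen.

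The counts of calls over 6 libraries, 8 higher and 35 lower, moved with the library left out. Without winter a, b and c in turn, 6, 9 and 5 members were called higher and 34, 29 and 24 lower. Without YY-1 a, b and c in turn, 6, 6 and 10 were called higher and 26, 34 and 33 lower. Of all tested genes, 18.8, 20.6 and 21.8% were called higher in these fits and 20.1, 22.3 and 25.6% lower. Over 6 libraries these shares were 22.5 and 25.5%, so the calls over all genes moved as well. For the fits without a winter library the shares over all genes are not given here, and those counts are not read as a trait of the members. The lowest counts in both directions thus came without winter c. Without winter b and YY-1 c together, 13 members were called higher and 33 lower. The share of all counts was still lower in winter without these cultures, at 26.3% in winter without culture b and 30.9% in YY-1 without culture c.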

How the data were processed

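RNA from mycelium of 3 winter and 3 YY-1 cultures was sequenced. After quality filtering, the authors aligned the reads with TopHat2 2.0.8b to transcripts predicted from the YY-1 genome. HTSeq 0.5.4p2 then gave the counts over unique exons. These versions come from the submitters' processing notes, and the paper's methods name other versions of both tools. The raw counts per gene that the authors deposited, 7491 rows of which 2 join a pair of gene models, were used without change. Reads that fit several near-identical genes may be lost, and the strand setting is not given in the sources used here, so counts of overlapping genes are uncertain. Genes are called by scaffold and number as in the files. Of these names, 0 were found in the reference table at hand (another strain), and no sequence or coordinate of the members was analysed here.

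Shares, ranks and CPM used the library totals. Strains were compared in edgeR 4.0.16 (R 4.3.3) by TMM, the default filter on low counts (7355 genes kept, 136 removed), a quasi-likelihood test of strain, with no other term, and Benjamini-Hochberg adjustment over all tested genes with a threshold of 0.05. DESeq, the tool of the paper, was not used here. The standard error is the size of the log2 fold change divided by the square root of F. An exact permutation test of 3 against 3 libraries cannot give a two-sided p below 0.1. Fits without a choosing library used 3 winter and 2 YY-1 libraries.

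Genes named are the 12 highest members, the 6 with the lowest and the 6 with the highest log2 fold change, and the 3 ranks on each side of the top 100. Others are named as parts of counts or after their values were seen. The members and lists were chosen with earlier results of these data known. Alternatives were DESeq2 1.42.0 and its size factors, library totals, library sizes without the members, no filter, a threshold of 0.01, a block for the culture letter, 1 library less at a time, the top 50 or 200, and ranking by the median. Scripts were tested on simulated data. No pair of replicates agreed within sampling noise.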

Additional observations from a re-analysis of the deposited data

How the results depend on the processing

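The percentage of members called higher in winter was 8.89% and moved to 5.56% at an adjusted p below 0.01, to 14.7% for the top 200 (27 of 184 genes) and to 14.4% without winter b and YY-1 c together, an alternative chosen after seeing the data. Leaving out 1 library gave 5.56% (without winter c) to 11.1% (without YY-1 c). DESeq2's Wald test gave 13.3%. The percentage called lower was 38.9%, and it ranged from 26.7% at an adjusted p below 0.01 and without winter c to 52.2% with library totals. Library totals moved all genes down, with a median log2 fold change over all tested genes of -0.13, against -0.03 with TMM. Leaving out 1 library gave at most 37.8%. Among genes tested without the library that chose them, the count called higher moved to 9 with DESeq2 and 1 at an adjusted p below 0.01 for the choice on YY-1 a (from 5), to 1 at that threshold for YY-1 b (from 6) and to 6 at that threshold for YY-1 c (from 13). The causes of these shifts, other than the stricter threshold itself, were not tested. Except for the fits without 1 YY-1 library, the share of all tested genes called is not given for the alternatives. The percentages and counts above may therefore follow shifts over all genes. The share of all counts was 19.1% in winter and 24.9% in YY-1 for the top 50, and 34.1% in winter and 41.5% in YY-1 for the top 200, which hold fewer and more genes. Leaving out 1 library gave 23.9 to 26.3% in winter and 30.9 to 33.6% in YY-1. The percentage of members within the winter top 100 was 54.4%, and 52.2 to 54.4% with a winter library left out, 75.6% for the top 50 and 37.0% for the top 200.

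Signs of small fold changes were not stable. With 1 library left out, the log2 fold change of C6.597 was -0.34 (without YY-1 b) to 0.16 (without YY-1 c), and it was 0.34 without winter b and YY-1 c together. That of C2.513 was -0.063 (without YY-1 b) to 0.402 (without YY-1 c), and -0.041 without winter a. That of C1.320 was -0.063 with library totals, -0.035 (without winter b) to 0.140 (without YY-1 b) with 1 library left out, -0.017 without YY-1 c and -0.084 without both winter b and YY-1 c. Without both of these cultures C8.514, C1.308 and C5.793 had 0.105, 0.205 and 0.065. Of the values of single named genes under the alternatives, 336 kept their direction and side of the threshold, 12 newly passed it, 5 no longer did (all for C2.58) and 11 changed sign.

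Cultures with the same letter were not taken as pairs, and the correlations of their deviations do not settle whether they should be. Over all tested genes these were 0.097 for a, 0.27 for b and 0.093 for c. Cultures of different letters gave -0.27 to 0.17. Winter a and winter b correlated best with the YY-1 culture of their own letter, but winter c correlated best with YY-1 a. With the letter as a replicate block, 11.1% of members (10) were called higher and 45.6% (41) lower, and the shares over all genes in that fit are not given here. The lowest count of a member was 809, and each strain had 3 cultures. Which of depth and number of cultures limits the calls was not tested.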

Other observations

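The genes that entered the top 100 only in winter were not members, and their values are given as a description chosen by winter levels. Of these 34 genes, 30 were called higher in winter by edgeR and 0 lower, in a list that winter levels selected. The highest was C1.1193, at rank 14 in winter and 413 in YY-1, with 8001, 4046 and 6043 CPM in winter a, b and c, against 348, 297 and 603 CPM in YY-1 a, b and c. C3.131 followed C8.204, at rank 20 in winter and 145 in YY-1, with 5176, 4838 and 4911 CPM in winter, against 994, 1325 and 592 CPM in YY-1. C5.494 stood at rank 35 in winter and 905 in YY-1, with 2967, 3558 and 3075 CPM in winter, against 240, 193 and 154 CPM in YY-1. C7.667, annotated as glucose-6-phosphate dehydrogenase, the entry enzyme of the oxidative pentose phosphate pathway, stood at rank 64 in winter and 175 in YY-1, with 2109, 1329 and 1910 CPM in winter, against 853, 703 and 979 CPM in YY-1. C8.204 itself, described beside its neighbours, was the second of these 34 genes by winter level.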
